A study of Mus musculus with 4 samples.

Results

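The protein kinase C isoforms examined were the genes Prkca, Prkcb, Prkcd, Prkce, Prkch, Prkcq and Prkcz, chosen by gene name in the array annotation, where Prkcb is written Prkcb1. Together they are 7 of 27745 gene names and 16 of 41174 non-control probes, and each of these probes is accounted for here. Expression was measured in 2 samples of splenocytes expressing B220, a surface antigen of B cells, from female mice of the C57BL/6N strain. They were compared with 2 B-cell lymphoma lines, each derived independently from mice carrying a transgene that the labels write as dompanime receptor 3; the lines are also labelled female and C57BL/6N. The promoter of the transgene, the age of the mice, the passage of the lines and whether splenocytes of several animals were pooled were not given in the sources used here. Each sample was hybridised to 1 single-colour oligonucleotide array, so the number of arrays, 2 against 2, limits the precision of every value. Nothing in the labels says that the splenocyte samples came from separate animals, so the splenocyte part of the spread behind each p-value may be only technical. In bulk RNA such as this, fewer cells of a type and less RNA per cell cannot be told apart.

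Protein kinase C enzymes are serine and threonine kinases that relay signals from receptors at the membrane. The conventional isoforms (alpha and beta here) need calcium and the lipid second messenger diacylglycerol, a further group (delta, epsilon, eta and theta here) needs diacylglycerol alone, and the atypical isoforms (zeta here) need neither. In B cells the beta isoform carries the antigen receptor signal to NF-kappaB, the delta isoform is known for its part in B-cell tolerance, and the theta isoform is best known from T cells.

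Array brightness, taken as the 75th percentile of processed signals, was 1078 and 514 for the splenocyte samples, 1122 for line 1 and 1315 for line 2, and 25042 to 27421 probes per array were well above background. No spot was saturated. Values below are log2 signals relative to the 75th percentile of their own array (0 is that percentile), a level that can be compared between arrays for 1 probe and not between probes. Pearson correlations over the 27404 tested probes were 0.992 between the splenocyte arrays, 0.99 between the lines and 0.823 to 0.838 across the groups. All 8 B cell markers listed were well above background on every array. Cd79a, part of the antigen receptor, differed by -0.17 ± 0.21 (SE) between the groups and was not called.

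Of the 16 probes, 14 were well above background on at least 2 arrays and were tested with limma, with p-values adjusted by Benjamini-Hochberg over all 27404 tested probes and a call at an adjusted p under 0.05. Of these 14, 3 were called higher in the lymphoma lines, 7 were called lower and 4 were not called. The probes called higher belong to Prkca and Prkcd, and those called lower to Prkce, Prkcq and Prkcz, while neither Prkcb probe was called. The comparison calls a large part of the transcriptome: 64.8% of all tested probes were called, 32.3% higher and 32.5% lower. The member count of 10 of 14 is therefore near the background, and probes of 1 gene are not independent of each other. The groups did not overlap for 13 of the 14 tested probes, against 85.6% of all tested probes. The median difference, lines minus splenocytes, was -1.67 on the log2 scale over the 14 member probes (-1.37 with the 3 probes below background in both lines set at their bounds) and -0.01 over all tested probes. All 10 calls were kept under every alternative processing in which the probe was tested.

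**Figure D1:**
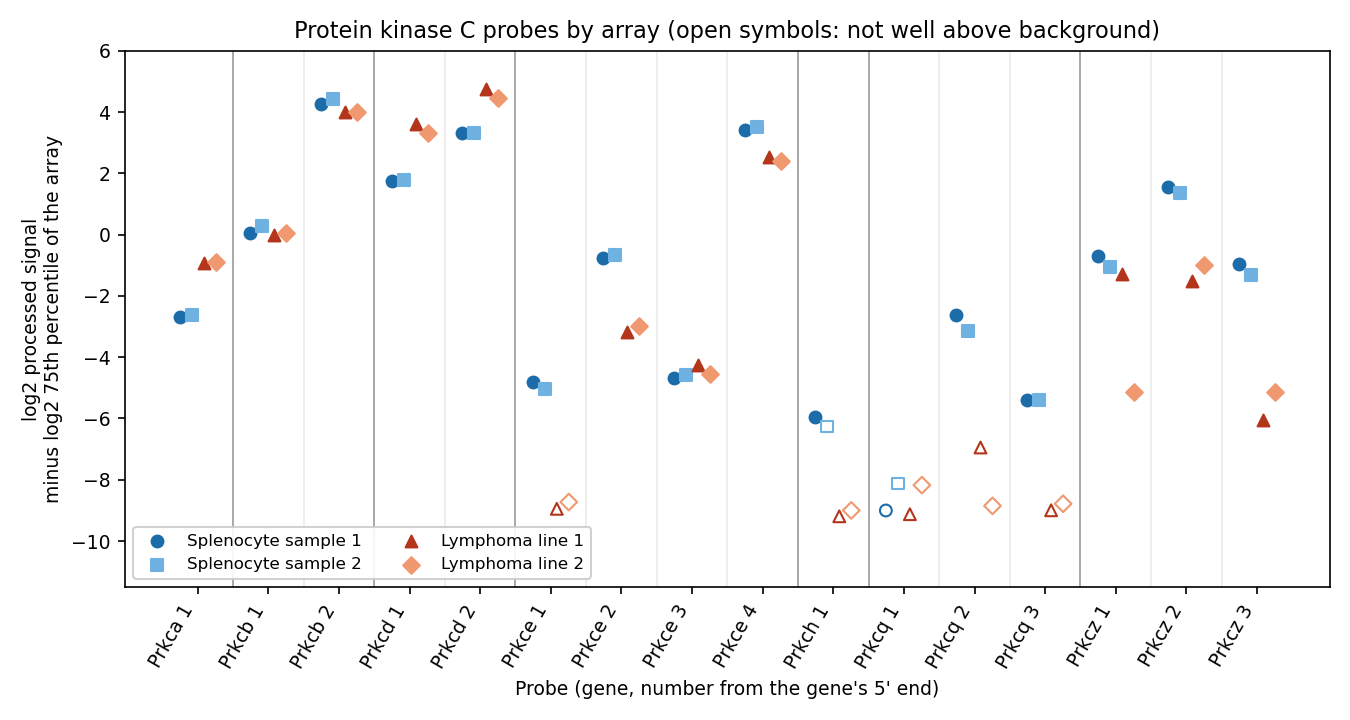
Log2 processed signal minus the log2 75th percentile of the array (vertical axis) of the 16 probes of the 7 protein kinase C genes (horizontal axis, numbered from the 5' end of each gene), with 1 symbol per array and open symbols where the probe was not well above background. Both lines lie above both splenocyte samples for Prkca and Prkcd, both lie below for Prkcq probes 2 and 3 and Prkcz probes 2 and 3, and line 2 alone lies far below for Prkcz probe 1.

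**Figure D2:**
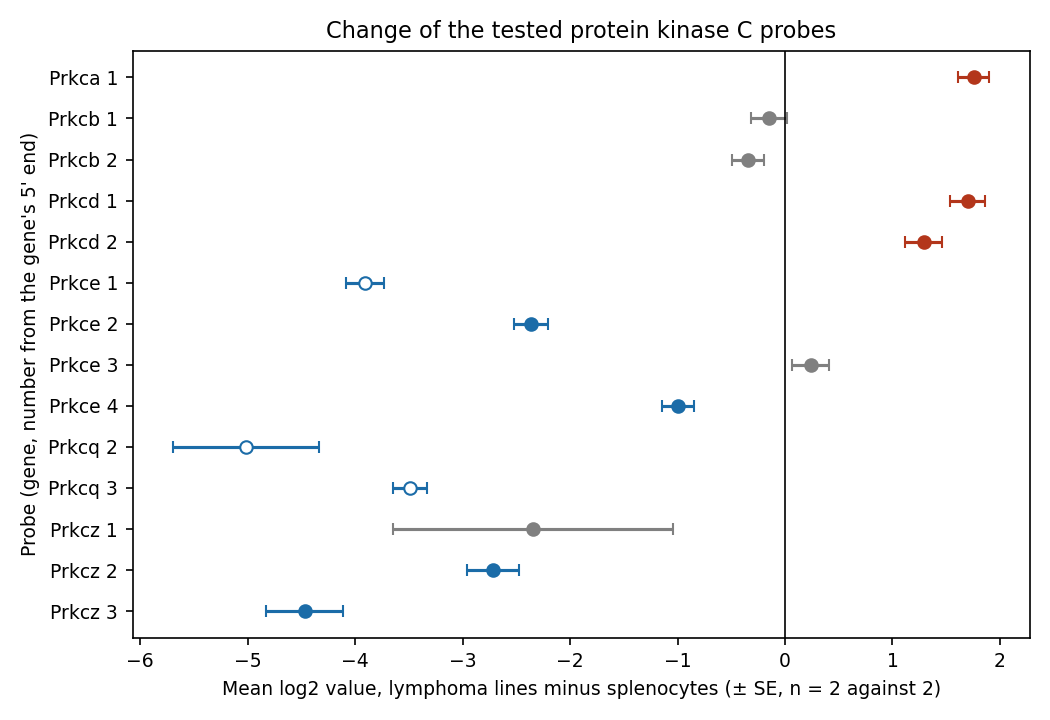
Difference in mean log2 value, lymphoma lines minus splenocytes, with its standard error (bars) for the 14 tested probes, n = 2 against 2. Red marks the 3 probes called higher, blue the 7 called lower and grey the 4 not called, and open symbols mark probes below background in both lines, whose plotted change rests on signals below background.

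Among the conventional isoforms, Prkca was higher in the lines. Prkca encodes the alpha isoform, which is expressed in many tissues. Its single probe (A_51_P118012, mm8 chromosome 11, 107754811 to 107754870, minus strand) read -2.70 and -2.63 in splenocyte samples 1 and 2 against -0.93 for line 1 and -0.89 for line 2. Both lines lay above both splenocyte samples, with little spread inside either group. The difference was 1.76 ± 0.14 (SE), which is 3.38-fold, with an adjusted p of 0.00103 by limma.

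Prkcb encodes the beta isoform of the antigen receptor pathway. At the more 3' of its probes (A_52_P51355, mm8 chromosome 7, 122419540 to 122419599, plus strand) the splenocyte samples read 4.27 and 4.44, line 1 4.02 and line 2 4.01. The lines lay slightly below both splenocyte samples, by 0.34 ± 0.15 (SE), which did not pass the test (adjusted p 0.108, limma). At the other probe (A_52_P328867, mm8 chromosome 7, 122373639 to 122375574) the groups overlapped, with 0.04 and 0.29 in the splenocyte samples against -0.03 and 0.06 in the lines, a difference of -0.15 ± 0.17 (adjusted p 0.466, limma). The direction at both probes depended on the scaling. Centring each array on its median gave 0.07 at the 3' probe and 0.26 at the other, while quantile normalization gave -0.55 at the 3' probe with an adjusted p of 0.0266, and scaling to the 75th percentile of bright probes gave -0.47 with 0.0499.

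Prkcd, the delta isoform, was higher in both lines at both of its probes. The 5' probe (A_52_P197498, mm8 chromosome 14, 29430206 to 29430793, minus strand) read 1.75 and 1.78 in splenocyte samples 1 and 2 against 3.60 for line 1 and 3.33 for line 2, 3.25-fold higher (1.70 ± 0.17, adjusted p 0.00161, limma). The 3' probe (A_51_P460734, mm8 chromosome 14, 29424858 to 29424917) read 3.31 and 3.33 against 4.76 and 4.47, 2.45-fold higher (1.29 ± 0.17, adjusted p 0.00355). At each probe the lines lay clear of the splenocyte samples, and line 1 was the higher line.

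The promoters of the genes with probes called higher are shown as the 250 bases before the RefSeq start site (build GRCm38.p6, a different build from the array's mm8, so that no distance between a probe and a start site is given). RefSeq windows matched 5 of the 7 genes, all but Prkce and Prkch. Capitals mark matches, on either strand, to 5 motifs: the GC box bound by Sp1 (GGGCGG), the AP-1 site (TGANTCA), through which phorbol esters that activate protein kinase C are known to act, the cyclic AMP response element (TGACGTCA), the TATA box (TATAAA) and the E-box (CACGTG). Of 32851 mouse windows of this length, 32.7% hold the GC box, 6.75% the AP-1 site, 1.55% the cyclic AMP response element, 12.4% the TATA box and 6.02% the E-box. The windows printed here are Prkca (chr11:108343889-108344138, minus strand) and the first of 2 Prkcd windows (chr14:30626209-30626458, minus strand).
Prkca promoter: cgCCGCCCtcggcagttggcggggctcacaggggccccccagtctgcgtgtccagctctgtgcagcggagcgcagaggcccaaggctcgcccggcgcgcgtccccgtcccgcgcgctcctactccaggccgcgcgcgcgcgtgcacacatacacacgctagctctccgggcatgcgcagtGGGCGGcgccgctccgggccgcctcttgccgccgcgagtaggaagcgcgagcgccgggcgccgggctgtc
Prkcd promoter: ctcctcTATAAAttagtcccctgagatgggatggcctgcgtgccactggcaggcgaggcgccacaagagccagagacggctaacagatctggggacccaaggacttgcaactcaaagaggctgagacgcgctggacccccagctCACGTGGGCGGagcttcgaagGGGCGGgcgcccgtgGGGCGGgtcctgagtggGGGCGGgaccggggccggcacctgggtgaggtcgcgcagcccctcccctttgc

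The Prkca window holds 2 GC boxes and 39 CpG dinucleotides, where the median over all windows is 6. The first Prkcd window holds 4 GC boxes, 1 TATA box and 1 E-box, the E-box overlapping the first GC box, and 18 CpG dinucleotides. The second Prkcd window, 15898 bases downstream, holds none of the 5 motifs and 1 CpG. The single Prkcb window holds 1 GC box and 17 CpG. The AP-1 and cyclic AMP motifs matched in none of the windows of the 5 genes, which says only that these letters are not in them.

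Prkce, the epsilon isoform, was lower in the lines at 3 of 4 probes, and the size of the change differed along the gene where it was measured. The 5'-most probe (A_52_P647188, mm8 chromosome 17, 86084669 to 86085538, plus strand) read -4.81 and -5.05 in the splenocyte samples and was not well above background in either line, at -8.95 and -8.73. The lines were at least 4.64-fold lower there (adjusted p 0.000309, limma), where the bound sets the mean of the splenocyte samples against the lowest signal well above background on the line arrays. Some 320 kb downstream (A_52_P375455, 86404325 to 86404384), the values were -0.77 and -0.68 against -3.18 and -2.99, 5.15-fold lower (-2.36 ± 0.16, adjusted p 0.00066).

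The other 2 Prkce probes lie at the 3' end. The 3'-most probe (A_51_P352782, 86566155 to 86566214), annotated to a cDNA clone whose name RefSeq lists as a synonym of Prkce, read 3.42 and 3.51 against 2.53 and 2.41, 1.998-fold lower (-0.998 ± 0.15, adjusted p 0.0049, limma). Between these, a probe whose annotated position spans 24393 bases (A_52_P31593, 86538526 to 86562918) read -4.67 and -4.58 against -4.24 and -4.54. The lines lay above the splenocyte samples by 0.24 ± 0.17 and the probe was not called (adjusted p 0.281), while the difference was 0.65 with an adjusted p of 0.0422 after quantile normalization, 0.65 with 0.0493 after centring on the median, and -0.29 after normexp background correction. At the 3 probes well above background on all arrays, the difference from the splenocyte samples ran from -2.36 to 0.24, and from -1.96 to -0.29 with normexp correction. The decrease at the 5'-most probe is known only as a bound, and with normexp correction it was -1.12.

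Whether probes of 1 gene changed unequally was tested with limma on the difference between the 2 probes of a pair on each array, a test chosen after these values were seen. All 6 Prkce pairs, the Prkcd pair and 1 of 3 Prkcz pairs passed at an adjusted p under 0.05, which is 8 of 12 member pairs against 49.6% of all 13210 pairs of tested probes of 1 gene. In 3 of these Prkce pairs 1 probe is the 5'-most one, below background in both lines, so the size of their differences is not measured. Among the 8 member pairs with no such probe, 5 passed. The decrease at the second Prkce probe exceeded that at the 3'-most by 1.37 ± 0.16 (adjusted p 0.00878), and the 5' Prkcd probe changed more than the 3' one by 0.41 ± 0.11 (adjusted p 0.0475). The count rested on both splenocyte samples: it was 2 without splenocyte sample 1, 0 without splenocyte sample 2 and 9 without line 1 or without line 2. With normexp correction it was 4, and 5 where every array had to be well above background.

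**Figure D3:**
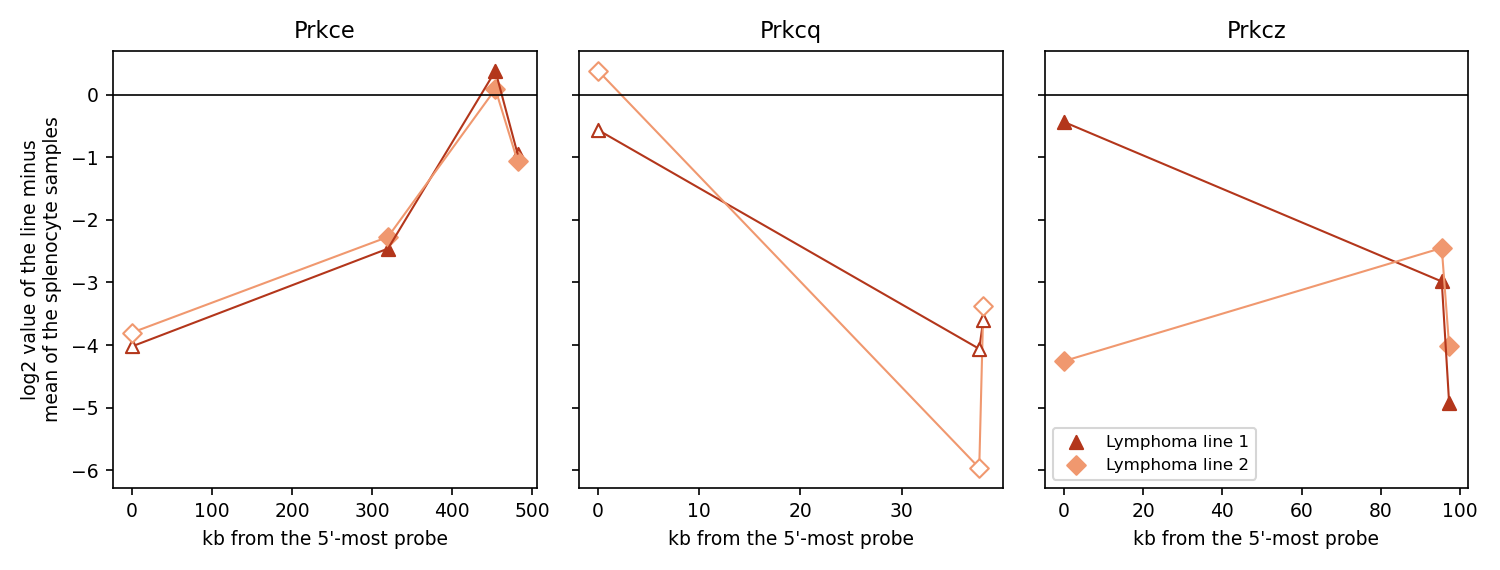
Log2 value of each lymphoma line minus the mean of the splenocyte samples (vertical axis) against the distance in kb from the 5'-most probe (horizontal axis) for Prkce, Prkcq and Prkcz, open where the line was not well above background. The lines run together along Prkce and part at the 5' probe of Prkcz, where line 1 is at -0.43 and line 2 at -4.26.

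Prkch, the eta isoform, is represented by 1 probe (A_51_P355852, mm8 chromosome 12, 74695892 to 74695951, plus strand). The values were -5.94 and -6.26 in splenocytes against -9.19 for line 1 and -9.0003 for line 2. The probe was well above background only on the array of splenocyte sample 1. With 1 such array of 4 it was not tested. The mean of both splenocyte samples lay 2.06-fold above the lowest signals well above background on the line arrays. Only 1 of these samples measured the probe, so this value is not a lower bound on the change.

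Prkcq, the theta isoform, was detected in the splenocyte samples and not well above background in either line. At the middle probe (A_52_P72587, mm8 chromosome 2, 11218252 to 11218311, plus strand) the splenocyte samples read -2.63 and -3.14 and the lines -6.95 and -8.85, at least 16.6-fold lower (adjusted p 0.00379, limma). At the 3' probe (A_51_P338935, 11218655 to 11218714) they read -5.40 and -5.40 against -8.996 and -8.78, at least 3.34-fold lower (adjusted p 0.000302). The groups stood apart at both. The 5' probe (A_52_P259508, 11180568 to 11180627), 38.1 kb from the 3' probe, was not well above background on any of the 4 arrays and gives no comparison. With normexp background correction, which compresses dim signals, the difference was -1.88 at the middle probe, -1.01 at the 3' probe and -1.12 at the 5'-most Prkce probe, each still called. The lower bounds given for folds hold for the processed signal and not under that correction.

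Because the theta isoform is abundant in T cells, the 14 T cell markers listed were read on the same arrays. All 14 were tested, 3 were higher in the lines, 7 were lower and 4 were not called, with a median difference of -0.32. Their summed signal, in units of the array's 75th percentile, was 13.1 and 12.3 in splenocytes against 13.8 and 15.9 in lines. A sum adds probes whose levels cannot be compared with each other, and a few bright probes carry it. Here these were Cd2 in splenocytes (3.00 and 3.01), and Cd5 (2.42 and 2.52) and Cd3g (2.35 and 2.62) in the lines. Similar sums therefore do not mean that the T cell markers kept their levels. All 14 were well above background in both splenocyte samples, and Thy1 (at least 95.6-fold lower in the lines), Cd247 and Cd8a were well above it in neither line. The receptor chain Cd3e read -3.63 and -3.13 in splenocyte samples 1 and 2 against -3.02 for line 1 and -2.77 for line 2 and was not called, while Cd3g was 20.5-fold higher in the lines. The part of these cells in the Prkcq and Prkch values was not tested.

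Markers of other cells that could accompany B220+ splenocytes also moved. Of 9 macrophage, monocyte and neutrophil markers 7 were lower and 1, Adgre1, was higher by 18.7-fold. Csf1r was 5.07-fold lower and Lyz2 at least 517-fold lower. Summed signals were 16.4 and 10.8 in splenocytes against 35.5 and 35.9 in lines. Nearly all of the line sums is Adgre1, which read 5.14 and 5.16 in the lines, so these sums do not stand for the list. Of 5 tested NK cell markers 4 were lower and 1, Prf1, was higher (not called with normexp, adjusted p 0.0533 by limma). The Prf1 call was also lost without a filter on dim probes, without either splenocyte sample and without line 1. Ncr1 was not well above background on any array. The sums were 0.862 and 0.832 against 0.572 and 0.440, those of the lines being mostly Prf1. Of 3 tested erythroid markers 2 were lower, with sums of 1.88 and 1.87 against 0.350 and 0.249. Neither of 2 tested platelet markers was called, with sums over the list of 0.196 and 0.116 against 0.0800 and 0.0952, and Pf4 was well above background in 1 splenocyte sample only. Of 4 plasma cell markers 3 were higher, with sums of 12.6 and 12.0 against 22.9 and 29.3. The larger part of each sum is Irf4, which read 3.19 and 2.91 in splenocytes against 3.93 and 4.04 in the lines. Sdc1 went the other way, 3.11-fold lower, and was not called (adjusted p 0.0601, limma). With normexp correction Sdc1 was called lower (-1.42, adjusted p 0.0308, limma). Of 4 plasmacytoid dendritic cell markers 2 were higher, among them Siglech by 4.59-fold, and 1 was lower, with sums of 21.8 and 21.1 against 34.6 and 34.5. Most of each sum is Tcf4, which read 3.90 and 3.77 in splenocytes against 4.75 and 4.70 in the lines. The sums therefore do not stand for Siglech. The Siglech call was lost with normexp (adjusted p 0.149 by limma) and without a filter on dim probes. It was also lost without splenocyte sample 1 or without line 2. The part of these cells in the protein kinase C values was not tested.

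Prkcz, the atypical zeta isoform, which works with the polarity proteins Par3 and Par6, had the largest change among member probes measured in both groups. At the 3'-most probe (A_52_P284889, mm8 chromosome 4, 154104026 to 154104085, minus strand) the splenocyte samples read -0.95 and -1.31 and the lines -6.05 and -5.14, 22.2-fold lower (-4.47 ± 0.36, adjusted p 0.00101, limma). At the probe next upstream (A_52_P438084, 154105884 to 154105943) the values were 1.57 and 1.34 against -1.53 and -0.99, 6.57-fold lower (-2.72 ± 0.24, adjusted p 0.00127). Both lines lay below both splenocyte samples at each, and with normexp correction the difference at the 3'-most probe was -2.86. The decrease at the 3'-most probe exceeded that at its neighbour by 1.76 ± 0.18 (adjusted p 0.00771, limma on pairs), a call that belongs to the pair counts above.

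At the 5' probe of Prkcz (A_52_P600822, mm8 chromosome 4, 154200280 to 154201303), 97.2 kb from the 3'-most one, the lines differed from each other. The splenocyte samples read -0.69 and -1.04, line 1 -1.30 and line 2 -5.12, all well above background. Line 2 was 14.2-fold below line 1 (-3.82), and line 1 lay below both splenocyte samples by less. Differences between the lines of over 8-fold were seen at 53 of the 27404 tested probes (0.193%), and between the splenocyte samples at 58 (0.212%). Each line is 1 array, so this difference has no replicate check. Over both lines the probe was not called (-2.35 ± 1.30, adjusted p 0.177, limma). Without line 1 the difference was -4.26 (adjusted p 0.00308), and without line 2 it was -0.43 (adjusted p 0.186). With normexp correction line 2 lay 2.64 log2 units below line 1.

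RefSeq lists 3 start sites for Prkcz, at 0, 15639 and 16679 bases from the most upstream one, and 1 for Prkcq. Their windows are shown because these genes carry the largest decreases and because the lines parted at the 5' probe of Prkcz. In GRCm38.p6 they are Prkcz start 1 (chr4:155361429-155361678, minus strand), start 2 (chr4:155345790-155346039, minus strand), start 3 (chr4:155344750-155344999, minus strand) and Prkcq (chr2:11172132-11172381, plus strand), with the same motifs in capitals.
Prkcz start 1: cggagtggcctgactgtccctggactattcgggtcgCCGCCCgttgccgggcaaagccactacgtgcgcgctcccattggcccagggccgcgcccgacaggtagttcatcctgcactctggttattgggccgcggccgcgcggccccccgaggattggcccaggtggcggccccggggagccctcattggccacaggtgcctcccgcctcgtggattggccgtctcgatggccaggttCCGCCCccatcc
Prkcz start 2: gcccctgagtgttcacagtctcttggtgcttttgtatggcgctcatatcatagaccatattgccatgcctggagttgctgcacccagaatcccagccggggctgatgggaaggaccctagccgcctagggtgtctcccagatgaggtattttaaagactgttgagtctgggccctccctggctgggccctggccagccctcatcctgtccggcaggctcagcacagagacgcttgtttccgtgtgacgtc
Prkcz start 3: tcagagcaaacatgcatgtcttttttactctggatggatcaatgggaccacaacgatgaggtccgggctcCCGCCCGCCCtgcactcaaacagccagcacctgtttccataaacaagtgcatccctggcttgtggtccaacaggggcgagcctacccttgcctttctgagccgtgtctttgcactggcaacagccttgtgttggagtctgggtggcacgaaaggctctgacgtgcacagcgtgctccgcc
Prkcq promoter: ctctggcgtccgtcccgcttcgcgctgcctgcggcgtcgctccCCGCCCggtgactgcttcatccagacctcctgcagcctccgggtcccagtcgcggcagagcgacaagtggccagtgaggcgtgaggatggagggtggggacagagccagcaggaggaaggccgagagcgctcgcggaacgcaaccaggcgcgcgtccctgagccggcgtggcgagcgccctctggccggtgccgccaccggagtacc

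The window of Prkcz start 1 holds 2 GC boxes and 25 CpG dinucleotides. Start 2 holds none of the 5 motifs and 7 CpG, and start 3 holds 2 overlapping GC boxes and 10 CpG, so the CpG count falls toward the all-window median of 6 at the inner starts. The Prkcq window holds 1 GC box and 30 CpG. GC boxes thus stood in the first windows of Prkca and Prkcd, called higher, and of Prkcq and Prkcz, called lower. Which start site each sample used was not measured.

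For each member with a tested probe, the 2 probes of other genes nearest in pattern were found by Euclidean distance of mean-centred log2 values over the 4 arrays, among probes well above background on the same arrays. Prkca lay nearest Hs2st1 (distance 0.0225) and Gtf2i (0.0391), Prkcd nearest Atp5o (0.0189) and Rabggtb (0.0200), and Prkcb nearest Sft2d1 (0.0120) and Ncor1 (0.0145). Prkce at its 3'-most probe lay nearest Phkg2 (0.0265) and Capzb (0.0322), and Prkcz at its brightest probe nearest Celf2 (0.0360) and Ints8 (0.0390). For these, 22746 to 22748 candidates were searched, so that close neighbours over 4 arrays are easily found. Prkcq, with 1408 candidates, lay nearest Dsel (0.323) and Phlda3 (0.592), where the line values of all 3 genes are below background.

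The genes around protein kinase C were read from 8 lists holding 65 genes, each represented by its brightest tested probe. Of 58 tested, 13 were higher in the lines, 27 were lower and 18 were not called, with a median difference of -0.51. Among all 18243 tested genes 63.4% were called, 30.8% higher and 32.7% lower. The count of lower genes was 16 without splenocyte sample 2, 20 or more without any other 1 array, and 17 where arrays were centred on the median, which moves all values up by 0.41.

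**Figure D4:**
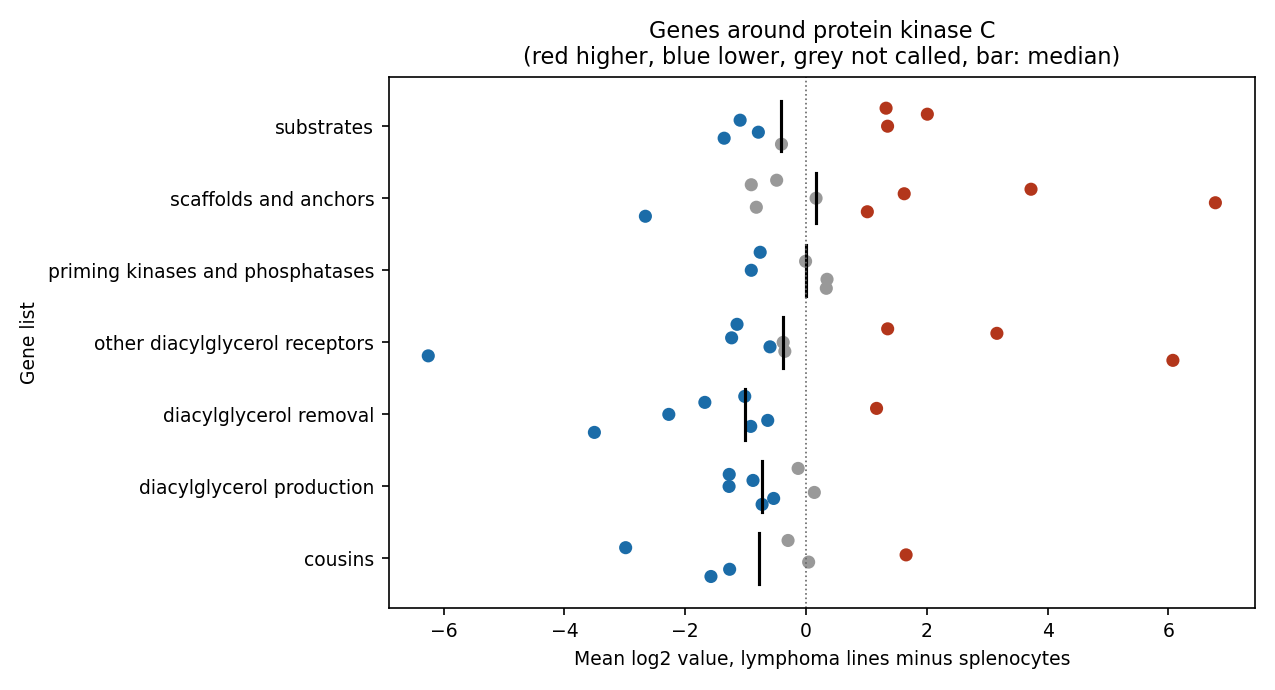
Difference in mean log2 value, lymphoma lines minus splenocytes (horizontal axis), of 50 tested genes around protein kinase C in 7 of the lists (rows), n = 2 against 2. Each point is 1 gene, red where higher, blue where lower and grey where not called, and the black bar is the list's median, which is lowest for diacylglycerol removal (-1.01) and highest for scaffolds and anchors (0.17).

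Enzymes that make the activating lipid came first. Of 7 tested phospholipases C, which release diacylglycerol from membrane phosphoinositides, 5 were lower, none was higher and 2 were not called (median -0.73). The count of lower ones was 2 when arrays were centred on the median, where 1 was higher, 2 without splenocyte sample 1 and 3 without any other 1 array or with normexp correction. Plcd1 was 2.42-fold lower and Plcg1 2.41-fold lower, the latter at 1 of its 3 tested probes. Plcg2, the form used by the B cell antigen receptor, differed by -0.13 ± 0.17 and was not called. Of 7 tested diacylglycerol kinases, which remove the lipid, 6 were lower and 1 was higher (median -1.01), with 4 lower when centred on the median or without splenocyte sample 1 and 3 without splenocyte sample 2. Dgka was 11.3-fold lower, reading 4.40 and 4.54 in splenocyte samples 1 and 2 against 0.64 for line 1 and 1.30 for line 2. Dgkg was 4.83-fold lower, a call lost without splenocyte sample 1 (adjusted p 0.0509) or 2 (0.0730, limma); with normexp correction the difference was -1.31 instead of -2.27 and was called. Dgkh was 2.25-fold higher.

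Of 9 other proteins that bind diacylglycerol, 3 were higher, 4 were lower (2 without splenocyte sample 2) and 2 were not called (median -0.38). The chimaerins, which switch off the GTPase Rac, moved in opposite directions. Chn1 read -6.86 and -6.96 in the splenocyte samples, 1 of which was well above background, and -0.87 and -0.79 in the lines, 67.4-fold higher. Chn2 read -2.79 and -3.10 against -9.29 and -9.10, below background in both lines and at least 18.4-fold lower. Unc13a, a vesicle priming factor of nerve terminals, was 8.94-fold higher. With normexp correction the differences were 2.90 for Chn1, -2.11 for Chn2 and 1.64 for Unc13a, all called. Rasgrp4, a Ras activator, was 2.35-fold lower at 1 of its 2 tested probes, and its call was lost without splenocyte sample 2 (adjusted p 0.0787, limma).

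Relatives of the 7 genes were split as well. Of 6 tested, 1 was higher, 3 were lower and 2 were not called (median -0.78). Prkci, the second atypical isoform beside Prkcz, read -0.17 and -0.32 in splenocyte samples 1 and 2 against 1.41 for line 1 and 1.41 for line 2, 3.16-fold higher (1.66 ± 0.15, adjusted p 0.00129, limma). Prkci and the 2 called Prkcz probes thus changed in opposite directions, while the 5' Prkcz probe was not called. The groups did not overlap at Prkci and these Prkcz probes, as at 85.6% of all tested probes. Prkd2, a protein kinase D that protein kinase C activates, was 7.92-fold lower.

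Scaffolds that position the kinases had a median difference of 0.17, with 4 of 9 higher, 1 lower and 4 not called. Scaling to the 75th percentile of bright probes gave 3 higher and 2 lower, and centring on the median 5 higher and 1 lower. The counts also changed when some single arrays were left out. Pard3, which encodes the Par3 partner of the atypical isoforms, was below background in both splenocyte samples (-9.21 and -8.43) and read -2.03 and -2.05 in the lines, at least 26.1-fold higher. Pard6g, a Par6 protein of the same complex, was 13.2-fold higher. With normexp correction the differences were 2.04 and 3.00, still called. Akap12, an anchor that binds protein kinases A and C, was 6.32-fold lower. Of 5 kinases and phosphatases that set the priming phosphorylation, 2 were lower and 3 were not called (median -0.01). The phosphatase Phlpp2 was 1.87-fold lower, at 1 of its 2 tested probes, and the mTORC2 subunit Rictor 1.69-fold lower. Both calls were lost with arrays centred on the median (adjusted p 0.0512 and 0.125, limma) and without splenocyte sample 2 (0.0541 and 0.0674), and that of Rictor also without splenocyte sample 1 (0.0826). When centred on the median, 2 of the 5 genes, Pdpk1 and Phlpp1, were instead called higher.

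Of 7 substrates of the kinases, 3 were higher, 3 were lower and 1 was not called (median -0.41). Scaling to the 75th percentile of bright probes gave 2 higher and 4 lower, and centring on the median 3 higher and 2 lower. Leaving out some single arrays also changed these counts. Pebp1, an inhibitor of Raf signalling, was 4.03-fold higher and the actin-binding substrate Marcks 2.55-fold higher, while the cytoskeletal Add3 was 2.56-fold lower and Marcksl1 2.13-fold lower. Marcks and Marcksl1, the members of 1 substrate family, were thus called in opposite directions.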

How the data were processed

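Cy3-labelled cRNA of total RNA was hybridised to 4 mouse arrays annotated on mm8, each carrying 43379 spots beside controls. The scanner images were read by Agilent Feature Extraction (9.5 per the submitters' processing notes, 9.5.1.1 per the file headers). The deposited processed signals, spot means and background medians are intensity values, and per the file headers other columns flag saturated or outlier spots and those well above background. The deposited series matrix holds the processed intensity times 1 factor per array (0.82 to 2.1), which gives a common 75th percentile, as read from the values.

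Outlier-flagged spots were dropped (153 probes lost all spots) and the others averaged per probe. Values are log2 processed signal minus the log2 75th percentile of the array. Probes well above background on at least 2 arrays entered a limma 3.58.1 fit of lines against splenocytes (lmFit, then eBayes, in R 4.3.3; prior 2.42 degrees of freedom beside 2 residual, two-sided), after a test on simulated data. A fold is a lower bound where a whole group was not well above background: the mean of the brighter group over the mean of, per array, the higher of the lowest signal well above background and the probe's own. Genes were named by array symbol, updated through RefSeq accessions (GRCm38.p6) where possible, which matched 18328 probes.

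The members and lists were chosen with earlier results of these data known. Named were every member probe, the 2 genes nearest each member, the 2 called genes with the largest increase and decrease of each list, and the defining markers. Some listed items are not reported here. Plcg2, Prkci beside Prkcz, and the markers Thy1, Cd247, Cd8a, Cd2, Cd5, Prf1, Lyz2, Adgre1, Irf4 and Tcf4 were singled out after their values were seen. Alternatives were background correction, scaling, dim and flagged probes, matrix values, the spread model, left-out arrays, a replicate block and 1 probe per gene. Deviations of same-numbered samples correlated at 0.0113 over probes, so the numbers were taken not to pair samples.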

Additional observations from a re-analysis of the deposited data

How the results depend on the processing

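Of the 14 tested protein kinase C probes, the 10 called ones kept direction and call in every alternative that tested them, and 3 of the 4 others were called in some: Prkcb and Prkce probes under other scalings, and the 5' Prkcz probe without line 1. Over all tested probes the median difference of -0.01 moved to -0.29 with normexp, 0.14 with quantile normalization, 0.40 centred on the median (where 64% of calls were higher, against 49.9%), -0.14 with the 75th percentile of bright probes and -0.38 without a filter. With every array required above background, 4 member probes were lower, since the 3 below background in both lines were left out, and 5 member pairs differed. Member pairs numbered 4 with normexp. Genes around protein kinase C called lower numbered 17 when centred on the median. With 1 probe per gene, 5604 probes were called higher, as fewer were tested.

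Leaving out 1 array at a time gave 6601 to 8345 probes higher and 6561 to 8676 lower, 3 member probes higher and 7 to 8 lower, 0 to 9 member pairs, and 11 to 12 genes around protein kinase C higher and 16 to 24 lower. With the replicate number as a block, 8321 probes were higher and 8428 lower, 3 member probes were higher and 7 lower, 24 genes around protein kinase C were lower and 7 pairs differed; the labels do not say that the numbers pair samples. A block for slide or scan was not run because all 4 arrays share 1 slide and 1 scan. With 2 arrays a group, and with dim probes giving bounds only, small differences in these genes were not resolvable.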
